A study of Mus musculus with 14 samples.

Results

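The genes described here are 45 factors of ribosome biogenesis, chosen by symbol from the table of raw counts. They comprise RNA polymerase I with its regulators, the core proteins of small nucleolar ribonucleoproteins (snoRNPs), assembly factors of the small and large ribosomal subunits, and abundant nucleolar proteins. All 45 were found among the 77981 genes of the table, and all 45 were among the 13997 genes kept for testing. The gene names came without measured values, but the members were chosen with earlier results of these data known. The counts of members below are therefore not from a list chosen blind to the data. They were put together as genes that Myc drives, but here they are named by their function. In edgeR's test of a slope on Myc across these tumours 0 members passed, against 0% of all genes. That test therefore cannot tell whether Myc drives them.

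Messenger RNA was counted at its 3′ ends in 14 mouse liver tumours. Per the labels, 4 tumours lacked Cdk16 and Cdk18 (DKO), 5 lacked Cdk18 (CDK18KO) and 5 were wild type (WT). Hydrodynamic injection of plasmids for the mouse proteins β-catenin and c-Myc started all tumours, so every group carries the Myc transgene and none is a Myc-free control. Per the labels' protocols, floxed Cdk16 was deleted in established tumours by Cre-ERT2, a recombinase switched on by tamoxifen, which was injected at 75 mg/kg on 5 days. Cre-ERT2 controls received the drug too, and tumours were taken 10 days later. Which of the groups had floxed Cdk16, Cre-ERT2 or tamoxifen, the promoter that drives Cre-ERT2, how Cdk18 was removed, and the strain, sex and age of the animals are not given in the sources used here. Tumours were collected at a diameter of 15 mm, at signs of distress or 8 weeks after injection, so the groups need not be matched for tumour age. The labels number the libraries within a genotype without naming animals, so p-values measure the spread between these libraries.

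Total counts ran from 1442417 to 6068209 per library. Cdk16 had 38.9, 18, 48.5 and 17.8 CPM in DKO tumours, 65.8, 36.7, 37.0, 32.7 and 31.0 CPM in CDK18KO tumours and 47.8, 59.2, 53, 40.0 and 45.5 CPM in WT tumours, a log2 fold change of -0.67 (SE 0.35, adjusted p = 0.310) for DKO against WT. DKO 1 and DKO 3 exceeded 4 of the 5 CDK18KO libraries. Cdk18 had 4, 0.563, 1.94 and 1.11 CPM in DKO tumours, 1.86, 1.06, 3.42, 2.64 and 0.927 CPM in CDK18KO tumours and 2.22, 10.4, 5.24, 1.26 and 4.63 CPM in WT tumours, and its values overlapped between all groups. Because the deleted exons are not given, counts at the 3′ end cannot check the genotype labels. The libraries CDK18KO 1, WT 3 and WT 5 stood apart by more than 100 CPM of 4 Y-linked genes, against at most 33.0 CPM in the other 11. The 4 genes summed to 0.647 to 2.78 CPM in DKO tumours, 0.311 to 348 CPM in CDK18KO tumours and 3.85 to 788 CPM in WT tumours, so every DKO library lay below every WT library. All 4 genes stood lower in DKO than in WT at an unadjusted p under 0.05, 3 of them by DESeq2 and 0 by edgeR's adjusted p. Results without these libraries are given beside those they touch.

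Ribosome biogenesis begins in the nucleolus, where RNA polymerase I transcribes the precursor of the ribosomal RNAs. Box C/D snoRNPs guide methylation of that precursor and box H/ACA snoRNPs guide its pseudouridylation, while large complexes of assembly factors fold and cleave it into the small and the large subunit. Myc is known to bind promoters of many genes of each of these steps and to raise their transcription, and large nucleoli are a known feature of tumours driven by Myc.

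Myc binds DNA together with Max, preferentially at the letters CACGTG, the canonical E-box, which read the same on both strands and are also bound by related factors. RefSeq promoter windows on GRCm38.p6, running from 250 bases before to 50 bases after the gene start, were matched for 38 of the 45 members. Rrp12, Rrs1, Bop1, Gnl2, Npm1, Tcof1 and Fbl had none. The letters were found in 9 of the 38 windows (23.7%), against 2187 of 27025 genes with a window (8.09%). That background also holds genes not kept for testing, whereas all members were kept, so the shares are not of like sets. The stretches below, 30 bases each and read 5′ to 3′ on the gene's strand, show how close to the gene start the letters lie in the 5 members with the smallest p for the slope on Myc among the 9 that hold them. The 4 members with the smallest slope p of all, Gnl3, Npm1, Noc2l and Nob1, are not among those 9, and Npm1 had no window. The last pair is from Rrn3, the RNA polymerase I initiation factor, and was chosen after its values were seen, because Rrn3 had the smallest p in both comparisons with WT. Capitals mark the letters searched.

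Wdr43 (chr17:71616220-71616249, plus strand): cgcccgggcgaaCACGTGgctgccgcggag

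Ltv1 (chr10:13193092-13193121, minus strand): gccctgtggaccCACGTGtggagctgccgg

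Mybbp1a (chr11:72441347-72441376, plus strand): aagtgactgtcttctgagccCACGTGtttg

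Utp4 (chr8:106893643-106893672, plus strand): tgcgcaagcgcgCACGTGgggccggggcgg

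Utp20 (chr10:88826765-88826794, minus strand): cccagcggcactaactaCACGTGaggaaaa

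Rrn3, upstream (chr16:13780472-13780501, plus strand): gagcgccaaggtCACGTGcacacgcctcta

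Rrn3, near the start (chr16:13780639-13780668, plus strand): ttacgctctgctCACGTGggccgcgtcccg

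After the gene start, the letters began at 17 bases in Wdr43, 28 in Ltv1, 40 in Mybbp1a, 15 in Utp4 and 37 in Utp20. In Rrn3 they began 215 and 48 bases before it. The other members with the letters were Pes1 and Tsr1, at 2 and 24 bases after the start, and Nop2, at 60 bases before it. A match is a description of the sequence and says nothing of binding in these tumours. Between DKO and WT, the median log2 fold change was -0.64 over the 9 members with the letters and -0.62 over the 29 members with a window and no match. The median slope on Myc was 0.20 and 0.21 in the same members.

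Summed over the 45 members, the level was 6740, 8990, 10605 and 9005 CPM in DKO tumours, 13269, 9418, 14771, 10987 and 14607 CPM in CDK18KO tumours and 18156, 9709, 11085, 13556 and 12585 CPM in WT tumours. CPM here is counts of transcript ends scaled to a common total with TMM factors, with no scaling for length. The DKO mean was 8835 ± 1589 CPM (SD, n = 4), against 12611 ± 2341 CPM in CDK18KO (n = 5) and 13018 ± 3223 CPM in WT (n = 5). DKO 3 exceeded CDK18KO 2 and WT 2, so the groups overlapped. The members took 0.7096 to 1.14% of all counts in DKO tumours, 0.780 to 1.57% in CDK18KO tumours and 1.13 to 1.85% in WT tumours.

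**Figure D1:**
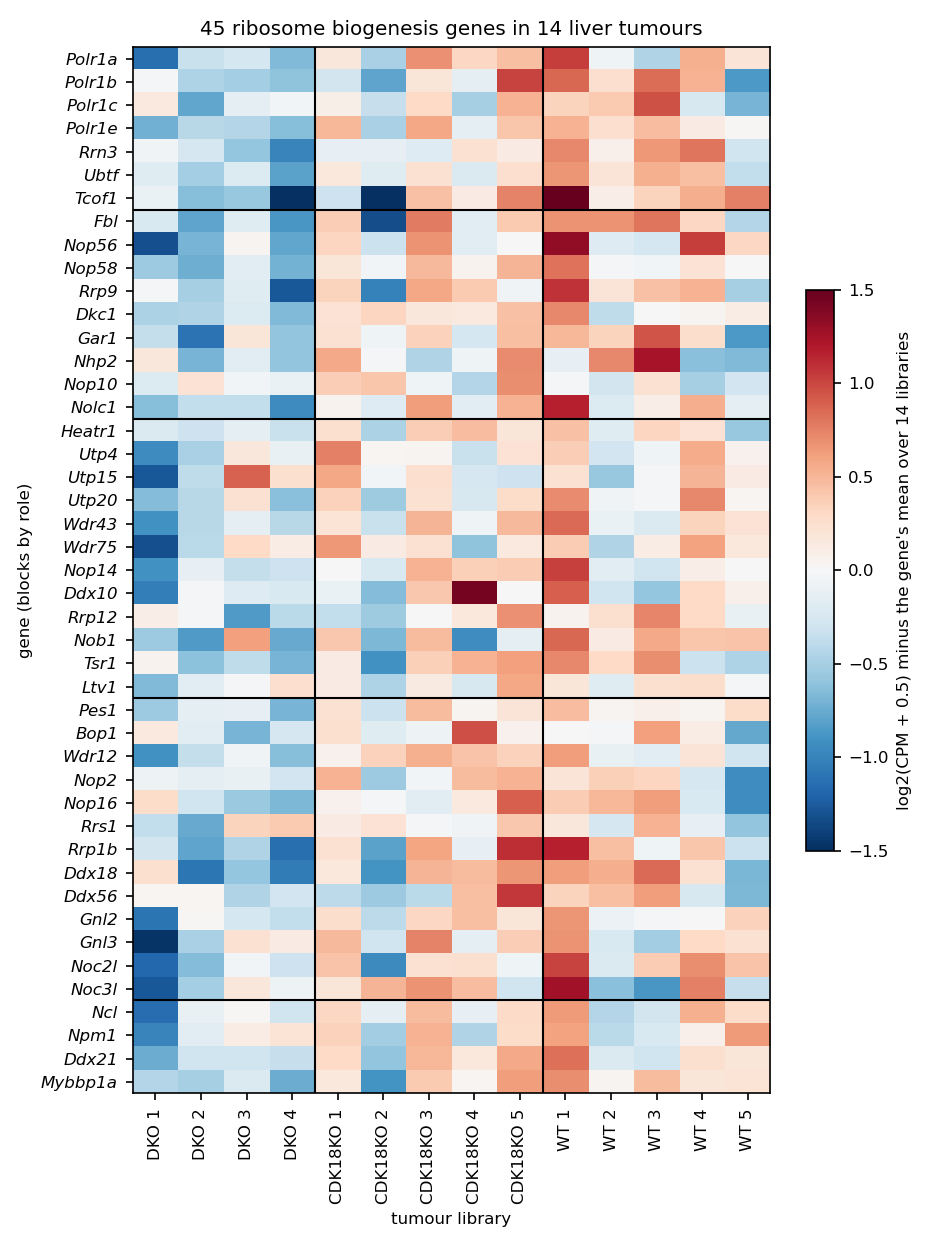
Each row is a member, in blocks by role, and each column a tumour library, DKO at the left and WT at the right. Colour gives log2(CPM + 0.5) minus the gene's mean over the 14 libraries, limited to ±1.5. Most DKO cells are blue, WT 1 is red in most rows, and CDK18KO 2 is blue in many rows.

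Between DKO and WT tumours, 44 of 45 members stood lower in DKO, with a median log2 fold change of -0.61, and Nop10, a small protein of the box H/ACA core, stood higher at 0.12 (SE 0.24). No single member passed edgeR's adjusted p of 0.05. Across all 13997 genes, 52.1% stood lower and 47.9% higher, the median was -0.04 and 1 gene (0.00714%) was called. At an unadjusted p under 0.05, 22 members stood lower and 0 higher, where 5.22% of all genes stood lower and 13.7% higher at that threshold. DESeq2 called 7 members lower (Rrn3, Tcof1, Nop58, Nop56, Nolc1, Ubtf and Noc2l), against 1.13% of the genes it tested, and 0 higher, against 6.28%. In 7 members every DKO library lay below every WT library, which held for 2.46% of all genes: Tcof1, Nop58, Nolc1, Mybbp1a, Polr1e, Pes1 and Ddx21. In 0 members every DKO library lay above every WT library, against 3.04% of all genes.

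By role, the median difference between DKO and WT was -0.88 over the 7 genes of RNA polymerase I and its regulators, of which 5 stood lower at an unadjusted p under 0.05. It was -0.76 over the 9 snoRNP genes (7 at that threshold) and -0.51 over the 12 small subunit factors (2). Over the 13 large subunit factors it was -0.54 (6) and over the 4 multifunctional nucleolar proteins -0.57 (2). Of all genes, 5.22% stood lower at that threshold. A list of 9 other RNA polymerase I genes, which holds no member, had a median of -0.35. Of these, 8 stood lower, with 0 at that threshold and 0 by DESeq2. All these medians are descriptions, and differences between roles or lists were not tested.

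Among the RNA polymerase I genes, Rrn3 recruits the polymerase to the ribosomal DNA promoter and is a known target of growth signals. Rrn3 had 105, 91.8, 72.8 and 54.5 CPM in DKO tumours, 100.3, 101, 95.3, 128 and 119 CPM in CDK18KO tumours and 180.2, 115, 171, 190.0 and 88.7 CPM in WT tumours. The log2 fold change was -0.88 (SE 0.27, adjusted p = 0.146) for DKO against WT. DKO and WT overlapped only through WT 5, which lay below DKO 1 and DKO 2, and the CDK18KO libraries lay between 95.3 and 128 CPM. Tcof1 encodes treacle, a nucleolar scaffold of RNA polymerase I transcription. Tcof1 had 197, 135, 142 and 73.4 CPM in DKO tumours, 171, 74.5, 287, 231 and 355 CPM in CDK18KO tumours and 646, 226, 268, 309 and 357 CPM in WT tumours. Every DKO library lay below every WT library, with a log2 fold change of -1.40 (SE 0.44, adjusted p = 0.146), and WT 1 was far above the rest. Ubtf, which binds and opens the ribosomal DNA promoter, had 142, 113, 139 and 92.3 CPM in DKO tumours, 179.8, 142, 189, 138 and 192 CPM in CDK18KO tumours and 254, 184, 233, 221 and 125 CPM in WT tumours. Its difference was -0.74 (SE 0.24, adjusted p = 0.147), and WT 5 lay inside the DKO range.

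Subunits of the polymerase among the members also stood lower in DKO. Polr1e, a subunit that helps the polymerase engage its promoter, had 6.29, 7.89, 7.77 and 6.67 CPM in DKO tumours, 15.2, 7.45, 16.1, 9.58 and 14.4 CPM in CDK18KO tumours and 15.6, 12.8, 14.8, 11.7 and 10.8 CPM in WT tumours. The 4 DKO values lay close together and below all WT values, with a log2 fold change of -0.88 (SE 0.32, adjusted p = 0.166), though the counts behind it were as low as 12 in a library. Polr1a, the largest, catalytic subunit, had 40.0, 69.9, 73.5 and 55.6 CPM in DKO tumours, 99.4, 62.8, 143, 110.0 and 121 CPM in CDK18KO tumours and 182, 84.8, 64.3, 128 and 101 CPM in WT tumours. The difference was -0.91 (SE 0.33, adjusted p = 0.166), and WT 3 lay within the DKO range. Polr1b, the second catalytic subunit, differed by -0.84 (SE 0.40), and Polr1c, which is shared with RNA polymerase III, by -0.43 (SE 0.34).

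Among the snoRNP genes, Nop56 and Nop58 form the paired scaffold of box C/D snoRNPs, on which Fbl, the methyltransferase, sits. Nop58 had 338, 297, 442 and 302 CPM in DKO tumours, 562, 479, 696, 512 and 707 CPM in CDK18KO tumours and 873, 485, 482, 576 and 494 CPM in WT tumours. All DKO values were below all WT and all CDK18KO values, and the log2 fold change against WT was -0.76 (SE 0.24, adjusted p = 0.146). WT 1 was above the other WT libraries, and without it the difference was -0.60. Nop56 had 99.7, 153, 257 and 145 CPM in DKO tumours, 312, 199.95, 398, 223 and 251 CPM in CDK18KO tumours and 627, 217, 208, 509.8 and 309 CPM in WT tumours. Its difference was -1.19 (SE 0.38, adjusted p = 0.147), with DKO 3 above WT 2 and WT 3. Fbl differed by -0.96 (SE 0.39) and Rrp9, which binds the U3 snoRNA, by -0.87 (SE 0.39).

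Nolc1, a chaperone that gathers snoRNPs in the nucleolus and Cajal bodies, had 148, 179, 179 and 120.0 CPM in DKO tumours, 239, 203, 358, 206 and 331 CPM in CDK18KO tumours and 521, 201, 248, 336 and 209 CPM in WT tumours. The DKO range ended below every WT and CDK18KO library, with a log2 fold change against WT of -0.95 (SE 0.31, adjusted p = 0.147). Dkc1, the pseudouridine synthase of box H/ACA snoRNPs, had 641, 647, 772 and 561 CPM in DKO tumours, 1035, 1111, 996, 986 and 1208 CPM in CDK18KO tumours and 1470.2, 684, 888, 913 and 958 CPM in WT tumours. WT 2 lay within the DKO range, and the difference was -0.58 (SE 0.22, adjusted p = 0.178). Nop10, a partner of Dkc1 in the same particle, had 283, 380.3, 319 and 304 CPM in DKO tumours, 421, 435, 313, 241 and 529 CPM in CDK18KO tumours and 323, 271, 385, 231 and 268 CPM in WT tumours. The 3 groups overlapped throughout. Gar1 and Nhp2, the remaining core proteins, differed by -0.74 (SE 0.34) and -0.59 (SE 0.41).

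**Figure D2:**
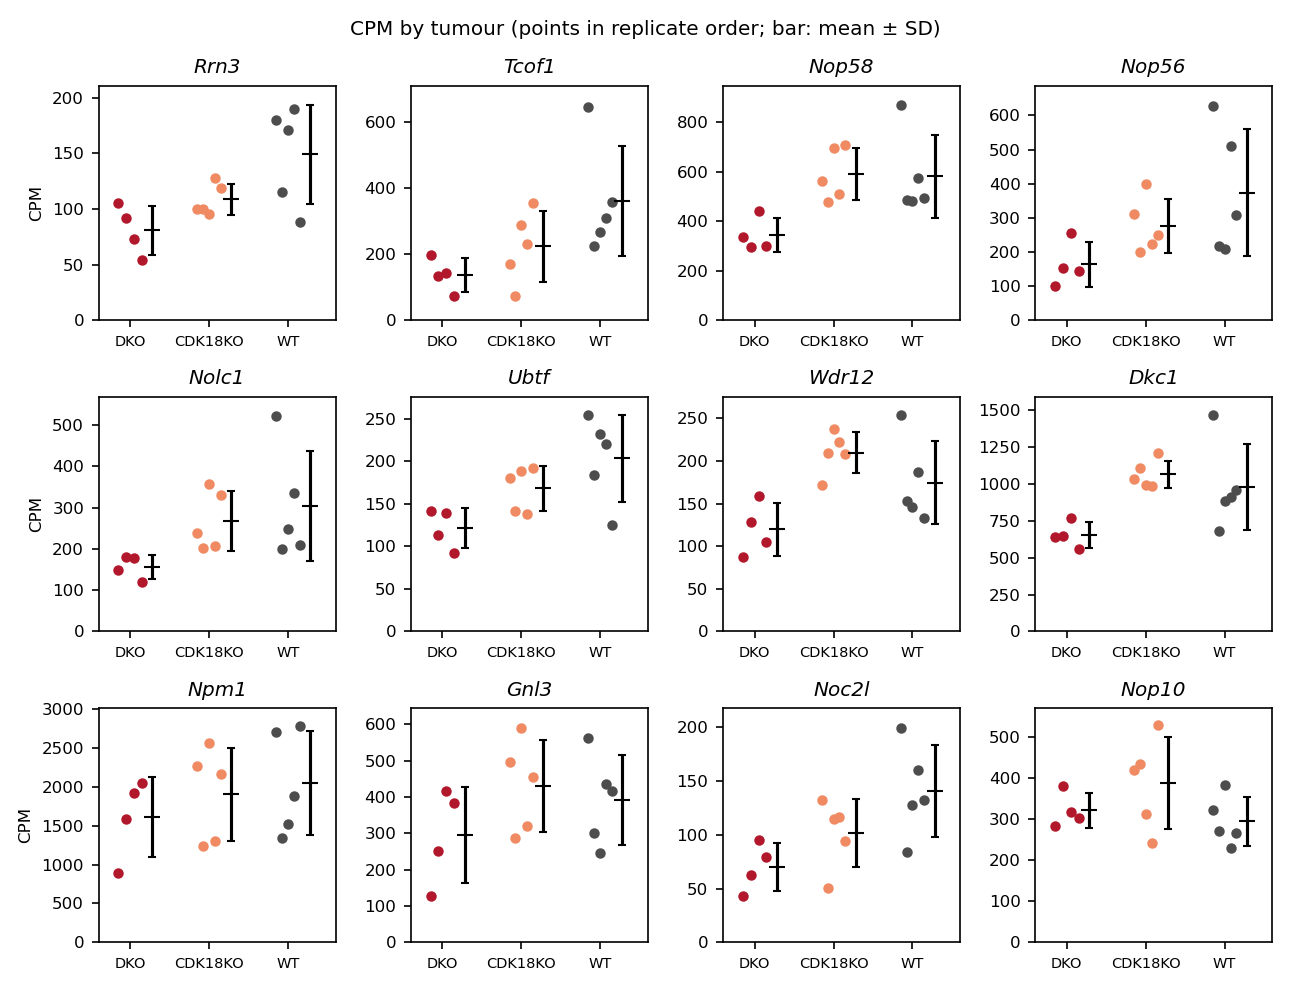
Points are single libraries in replicate order, with DKO at the left, CDK18KO in the middle and WT at the right of each panel, and the bar is the mean ± SD. The axis is CPM from 0. The DKO points of Nop58, Nolc1 and Tcof1 lie below all WT points, whereas those of Nop10 and Npm1 lie among them.

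All 12 small subunit factors stood lower in DKO, by widely differing amounts. Wdr43, a member of the UTP-A complex that joins the nascent ribosomal RNA first, had 231, 323, 389 and 324 CPM in DKO tumours, 498, 344, 615, 413 and 607 CPM in CDK18KO tumours and 776, 402, 372, 543 and 504 CPM in WT tumours. The difference was -0.71 (SE 0.27, adjusted p = 0.175), and the groups overlapped only between DKO 3 and WT 3. Nob1, the endonuclease that makes the mature end of the small subunit's RNA, had 17.4, 14.1, 39.5 and 15 CPM in DKO tumours, 34.2, 16, 36, 13.2 and 23.2 CPM in CDK18KO tumours and 47.1, 28, 38.4, 34.3 and 34.7 CPM in WT tumours. DKO 3 was more than any other DKO library and within the WT range, and the difference was -0.76 (SE 0.39, adjusted p = 0.307). The remaining factors ran from -0.02 in Utp15 to -0.65 in Tsr1, a GTPase-like factor of late maturation, and Utp20 was the only other factor at an unadjusted p under 0.05, at -0.64 (SE 0.29, unadjusted p = 0.0435).

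Among large subunit factors, Noc2l had 43.4, 62.5, 95.5 and 79.5 CPM in DKO tumours, 132, 50.5, 115, 116 and 94.5 CPM in CDK18KO tumours and 199.9, 84.3, 128, 160.4 and 133 CPM in WT tumours. Noc2l escorts early large subunit precursors, and its difference was -1.01 (SE 0.33, adjusted p = 0.148), with DKO 3 above WT 2. Pes1, Bop1 and Wdr12 form the PeBoW complex, which is needed to process the spacer between the large subunit's RNAs. Pes1 had 53.7, 71.6, 72.2 and 48.3 CPM in DKO tumours, 92.3, 62.8, 109.6, 80.9 and 90.4 CPM in CDK18KO tumours and 108, 80.9, 82.7, 80.7 and 95.7 CPM in WT tumours. Every DKO library lay below every WT library, at -0.54 (SE 0.23, adjusted p = 0.213). Bop1 had 29.4, 23.7, 16.2 and 22.2 CPM in DKO tumours, 31.4, 23.4, 25.2, 52.5 and 27.8 CPM in CDK18KO tumours and 26.7, 26.2, 41, 28.7 and 15.4 CPM in WT tumours. CDK18KO 4 was high, the DKO and WT values overlapped, and the difference was -0.28 (SE 0.33, adjusted p = 0.666). Gnl3, the nucleolar GTPase nucleostemin, had 127, 252, 416 and 385 CPM in DKO tumours, 498, 287, 591, 319.7 and 455 CPM in CDK18KO tumours and 563, 302, 247, 436 and 416 CPM in WT tumours. Those groups overlapped as well, at -0.41 (SE 0.35, adjusted p = 0.542). The lowest value in this role was Rrp1b at -1.05 (SE 0.39) and the value nearest 0 was Rrs1 at -0.01 (SE 0.28).

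The multifunctional proteins are also known outside ribosome assembly. Ncl, the histone and RNA chaperone nucleolin, had 1046, 2141, 2335 and 1874 CPM in DKO tumours, 2851, 2095, 3202, 2114 and 2806 CPM in CDK18KO tumours and 3605, 1700.5, 1908, 3327 and 2783 CPM in WT tumours. DKO 1 was lowest of all, WT 2 and WT 3 lay inside the DKO range, and the difference was -0.53 (SE 0.29, adjusted p = 0.336). Npm1, nucleophosmin, had 894, 1586, 1924 and 2048 CPM in DKO tumours, 2264, 1239, 2559.6, 1299 and 2160.2 CPM in CDK18KO tumours and 2708, 1341, 1516, 1879.6 and 2773 CPM in WT tumours. Those groups overlapped almost completely, at -0.34 (SE 0.32, adjusted p = 0.579). Npm1 has processed pseudogenes in the mouse genome, so the way shared reads were counted could affect its level. Mybbp1a, a nucleolar Myb-binding protein, had 164, 157, 192 and 132 CPM in DKO tumours, 249, 119, 292, 227 and 343 CPM in CDK18KO tumours and 359.7, 229.6, 311, 252 and 257 CPM in WT tumours. All DKO values lay below all WT values, at -0.80 (SE 0.28, adjusted p = 0.154). Ddx21, an RNA helicase that senses polymerase activity, had 408, 556, 554 and 534 CPM in DKO tumours, 838, 453, 960.2, 761 and 1013 CPM in CDK18KO tumours and 1210.3, 586, 556, 806 and 775 CPM in WT tumours. DKO 2, at 555.5 CPM, lay just below WT 3, at 555.7 CPM, and the difference was -0.62 (SE 0.28, adjusted p = 0.253).

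Markers of other cells and of liver function moved with genotype beside these genes. All 15 hepatocyte markers stood higher in DKO than in WT, 12 of them at an unadjusted p under 0.05, 10 by DESeq2 and 0 by edgeR's adjusted p. Their summed level was 1690 to 22897 CPM in DKO tumours, 1321 to 13992 CPM in CDK18KO tumours and 171 to 4162 CPM in WT tumours. With the mean of this list as a covariate, the median over the 45 members was -0.23 between DKO and WT, with 34 lower and 0 at an unadjusted p under 0.05, where 0.593% of all genes stood lower at that threshold. In that fit the small subunit factors had a median of 0.00 and the RNA polymerase I genes -0.43. Neutrophil markers summed to 371 to 547 CPM in DKO, 5.59 to 92.2 CPM in CDK18KO and 43.7 to 282 CPM in WT, and erythroid markers to 1727 to 10056, 536 to 1913 and 561 to 2668 CPM in the same order. B and plasma cell markers summed to 33.3 to 127 CPM in DKO, 1.321 to 8.08 CPM in CDK18KO and 2.22 to 9.26 CPM in WT. Macrophage markers stood higher in DKO than in WT in 7 of 7 genes, at sums of 72.8 to 632 CPM in DKO, 61.8 to 136 CPM in CDK18KO and 55.5 to 141 CPM in WT. The part of the blood cell and macrophage markers in these results was not tested. In bulk tissue, fewer cells of a type and less RNA per cell cannot be told apart.

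The 8 proliferation markers all stood lower in DKO than in WT, with a median of -0.48 and 0 at an unadjusted p under 0.05. They summed to 838 to 1739 CPM in DKO tumours, 1364 to 2470 CPM in CDK18KO tumours and 1306 to 2126 CPM in WT tumours. Without the 3 libraries of high Y-linked counts, the members' median between DKO and WT was -0.73, with 43 lower and 22 at an unadjusted p under 0.05. With the level of the Y-linked genes as a covariate it was -0.64, with 42 lower and 12 at that threshold, where 3.34% of all genes stood lower. With 1 library left out, the count at that threshold ran from 12 without DKO 4 to 24 without CDK18KO 2. No member was called by edgeR in any of these fits. Where libraries were left out, the share of all genes at an unadjusted p under 0.05 was not worked out. Those counts of members therefore have no background.

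**Figure D3:**
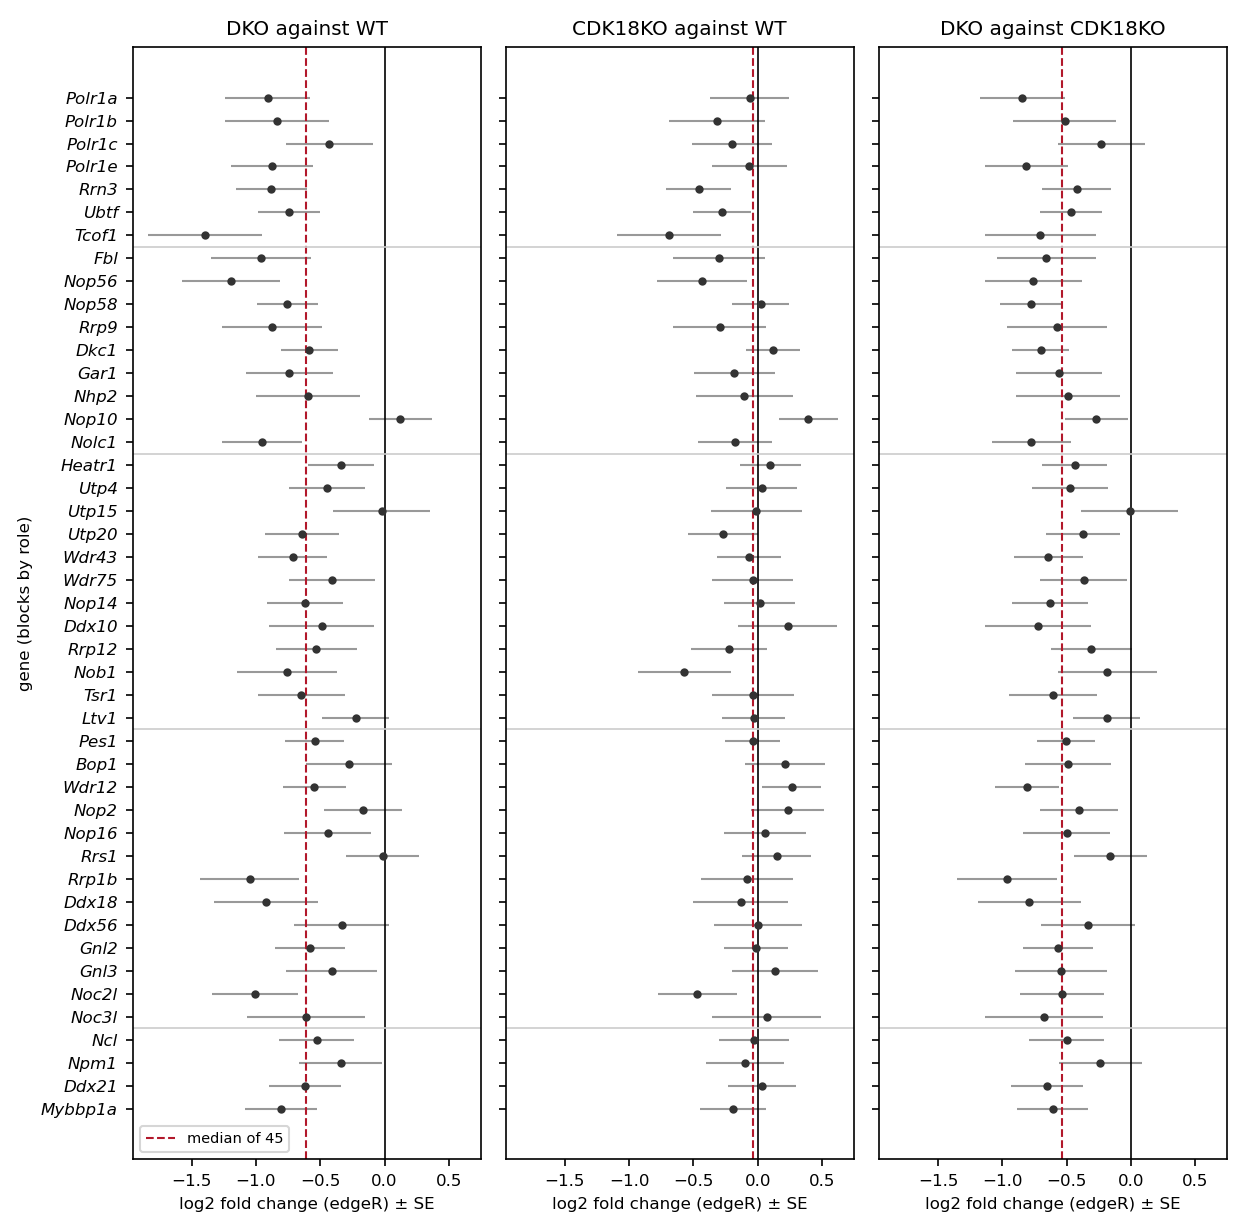
Points are the edgeR log2 fold change of each member in each comparison and lines are ± SE. The dashed line is the median over the 45 members, at -0.61 for DKO against WT, -0.04 for CDK18KO against WT and -0.54 for DKO against CDK18KO.

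Between DKO and CDK18KO tumours, whose labels differ by Cdk16, 45 of 45 members stood lower in DKO, with a median log2 fold change of -0.54. This comparison shares its DKO libraries with the one above. Across all genes, 51.8% stood lower and 48.2% higher, the median was -0.02 and 0 genes (0%) were called by edgeR, so 0 members were called. At an unadjusted p under 0.05, 12 members stood lower, against 1.86% of all genes, and 0 higher, against 3.94%. DESeq2 called 0 members, against 0.0287% of the genes it tested lower and 0.574% higher. All DKO libraries lay below all CDK18KO libraries in 4 members, Wdr12, Nop58, Dkc1 and Nolc1, which held for 0.722% of all genes, and above them in 0, against 0.872%.

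Wdr12, the WD-repeat member of PeBoW, had 87.1, 128, 159 and 105 CPM in DKO tumours, 172, 209, 238, 222 and 208 CPM in CDK18KO tumours and 254, 153, 146, 187 and 133 CPM in WT tumours. The DKO values ended at 159 CPM, below the lowest CDK18KO value of 172 CPM, and the log2 fold change was -0.81 (SE 0.25, adjusted p = 0.485). WT values overlapped with both groups, and Wdr12 differed between CDK18KO and WT by 0.26 (SE 0.23). Nop58 differed between DKO and CDK18KO by -0.78 (SE 0.24, adjusted p = 0.493) and Dkc1 by -0.70 (SE 0.22, adjusted p = 0.508). With the hepatocyte list as a covariate these were -0.63 for Nop58, -0.62 for Dkc1 and -0.70 for Wdr12, and these 3 of 45 members stood lower at an unadjusted p under 0.05, where 3.41% of all genes did in that fit. Polr1a differed by -0.84 (SE 0.33, adjusted p = 0.712), with CDK18KO 2 inside the DKO range. Polr1e differed by -0.81 (SE 0.32, adjusted p = 0.725), again with CDK18KO 2 inside the DKO range, and Nolc1 by -0.77 (SE 0.31, adjusted p = 0.738).

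The RNA polymerase I genes had a median of -0.52 between DKO and CDK18KO, the snoRNP genes -0.66, the small subunit factors -0.41, the large subunit factors -0.54 and the multifunctional proteins -0.55. Utp15, a UTP-A protein, had the value nearest 0, at -0.01 (SE 0.38), and Rrp1b, a large subunit factor, the lowest, at -0.97 (SE 0.39). With the hepatocyte covariate the median over the 45 was -0.41, with 43 lower. Of the hepatocyte markers, 13 of 15 stood higher in DKO than in CDK18KO, and 8 of 8 proliferation markers stood lower, 2 of them at an unadjusted p under 0.05. Cholangiocyte markers stood higher in DKO in 7 of 7 genes, with a median of 3.28, 5 at an unadjusted p under 0.05 and 2 by DESeq2. They summed to 149 to 555 CPM in DKO tumours, 25.8 to 301 CPM in CDK18KO tumours and 164 to 383 CPM in WT tumours. Stellate cell and fibroblast markers were higher in 10 of 10 genes (median 1.08, 2 at that threshold), macrophage markers in 7 of 7 (median 1.15, 2 at that threshold), and the neutrophil and erythroid markers in 6 of 6 each. The part of these markers in the members' values was not tested. Leaving out CDK18KO 2 raised the count of members at an unadjusted p under 0.05 to 21, and leaving out CDK18KO 3 brought it to 3, while 43 to 45 members stood lower in every fit that left out a library. Without the 3 libraries of high Y-linked counts, 44 members stood lower, 8 at that threshold, with a median of -0.51. In the fits that left libraries out, the share of all genes at that threshold was not worked out.

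Between CDK18KO and WT tumours the members had no common direction. Of the 45, 29 stood lower and 16 higher in CDK18KO, where 50.6% of all genes stood lower and 49.4% higher, and the median was -0.04. By edgeR 0 members were called, against 0.00714% of all genes, and 0 reached an unadjusted p under 0.05, against 5.31% of all genes lower and 11.6% higher. DESeq2 called 0, against 1.82% lower and 4.32% higher, and 0 members had groups without overlap, against 1.6% of all genes lower and 1.1% higher.

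The RNA polymerase I genes leaned lowest in CDK18KO, all 7 below WT with a median of -0.27, and the large subunit factors stood at 0.06, with 8 of 13 higher. Rrn3 had the smallest p, at -0.46 (SE 0.25, adjusted p = 0.373). Its CDK18KO values of 95.3 to 128 CPM stood between the WT extremes of 88.7 and 190 CPM. Tcof1 differed by -0.69 (SE 0.40, adjusted p = 0.399), Nob1 by -0.57 (SE 0.36, adjusted p = 0.44), Noc2l by -0.47 (SE 0.31, adjusted p = 0.457) and Nop56 by -0.43 (SE 0.35, adjusted p = 0.554). Nop10 stood higher, at 0.39 (SE 0.23, adjusted p = 0.403), with CDK18KO 3 and CDK18KO 4 within the WT range. Without CDK18KO 2, the library of lowest member level in this group, 17 members stood lower and the median was 0.05. Without the 3 libraries of high Y-linked counts, 37 members stood lower and the median was -0.18. With the hepatocyte covariate, 10 stood lower and the median was 0.18, and of the RNA polymerase I genes 4 of 7 stood lower, with a median of -0.02. Of the hepatocyte markers, 13 of 15 stood higher in CDK18KO than in WT, 9 at an unadjusted p under 0.05, and of the proliferation markers 7 of 8. Stellate cell and fibroblast markers stood lower in CDK18KO in 10 of 10 genes, with a median of -1.71, 6 at an unadjusted p under 0.05 and 4 by DESeq2. They summed to 47.2 to 904 CPM in CDK18KO tumours and 460.5 to 1357 CPM in WT tumours. Cholangiocyte markers stood lower in 6 of 7 genes, with a median of -2.57, 4 at that threshold and 3 by DESeq2. The part of both lists was not tested.

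Myc itself was counted thinly, at 10 to 113 counts per library. Myc had 9.71, 9.01, 20.7 and 33.9 CPM in DKO tumours, 15.8, 5.32, 27.6, 9.91 and 8.8 CPM in CDK18KO tumours and 38.6, 15.5, 24.4, 14.5 and 22.4 CPM in WT tumours. The 10 counts in CDK18KO 2 have an exact 95% Poisson interval of 4.80 to 18.4 counts, which covers counting error only. The groups overlapped, with log2 fold changes of -0.33 (SE 0.52, adjusted p = 0.745) for DKO against WT and -0.76 (SE 0.49, adjusted p = 0.447) for CDK18KO against WT. Whether reads from the injected Myc plasmid end inside the counted Myc gene is unknown, so these counts may leave out transgene RNA.

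A slope on log2 Myc CPM was fitted for each gene within genotypes. It was above 0 for 38 of 45 members, with a median of 0.21, against 53.3% of 13996 genes and a median of 0.04, and below 0 for 7, against 46.7%. By edgeR 0 members were called, against 0% of all genes, and DESeq2 called 0, against 2.13% with a slope above 0 and 5.24% below 0. At an unadjusted p under 0.05, 4 members had a slope above 0, against 6.04% of all genes, and 0 below 0, against 10.6%. Those above 0 were Gnl3 at 0.49 (SE 0.16, adjusted p = 0.181), Npm1 at 0.45 (SE 0.15, adjusted p = 0.185), Noc2l at 0.45 (SE 0.17, adjusted p = 0.216) and Nob1 at 0.48 (SE 0.20, adjusted p = 0.271), in log2 units per doubling of Myc. Nop56 followed at 0.39 (SE 0.19, adjusted p = 0.323) and Wdr43 at 0.28 (SE 0.14, adjusted p = 0.323). The 7 members with a slope below 0 were Rrn3, Nop16, Rrp12, Ddx56, Nhp2, Bop1 and Nop10, of which Nop16 was lowest at -0.20 (SE 0.20).

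Gnl3 and Npm1, which bind each other in the nucleolus, were the members with the smallest p for the slope. Both were higher in the DKO libraries with more Myc. Those libraries are part of the slope fit, so their values describe it and are no separate evidence. Gnl3 was 127 and 252 CPM in DKO 1 and DKO 2, with Myc at 9.71 and 9.01 CPM, and 416 and 385 CPM in DKO 3 and DKO 4, with Myc at 20.7 and 33.9 CPM. Rrn3 ran the other way there, at 105 and 91.8 CPM in DKO 1 and DKO 2 and 72.8 and 54.5 CPM in DKO 3 and DKO 4. The WT libraries did not follow that order for Gnl3. It was 247 CPM in WT 3, with Myc at 24.4 CPM, and 436 CPM in WT 4, with Myc at 14.5 CPM. Hepatocyte markers summed to 12661 and 22897 CPM in DKO 1 and DKO 2, and to 1690 and 6216 CPM in DKO 3 and DKO 4. Their part in these values was not tested.

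Over the 14 libraries, Pearson's r of the members' mean log2 CPM with log2 Myc CPM was 0.37 and Spearman's rho 0.27. Without CDK18KO 2 and WT 1, the libraries farthest from the median Myc level, r was 0.02 and rho -0.03 over 12 libraries. Leaving out extremes of Myc narrows its range, so the fall in r cannot show that the relation rests on these libraries. With 1 library left out, the members' median slope within genotypes ran from 0.12, without CDK18KO 2, to 0.27. The libraries share genotype, tumour composition and the scaling, and these values are descriptions. DKO 4 had the second highest Myc level of all and a member mean of 6.44, among the lowest. The hepatocyte mean had r = -0.78 and rho = -0.75 with the member mean and r = -0.69 with Myc, and the proliferation mean had r = 0.74 and rho = 0.78 with the member mean. Log2 of the total count had r = 0.19. With the hepatocyte covariate the median slope on Myc was -0.03, with 25 members below 0. Without the 3 libraries of high Y-linked counts it was 0.20, with 7 below 0 and 3 above 0 at an unadjusted p under 0.05. The share of all genes at that threshold was not worked out in that fit. Without DKO 4 the fit called 417 of all genes and 0 members, and the members' median was 0.27.

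**Figure D4:**
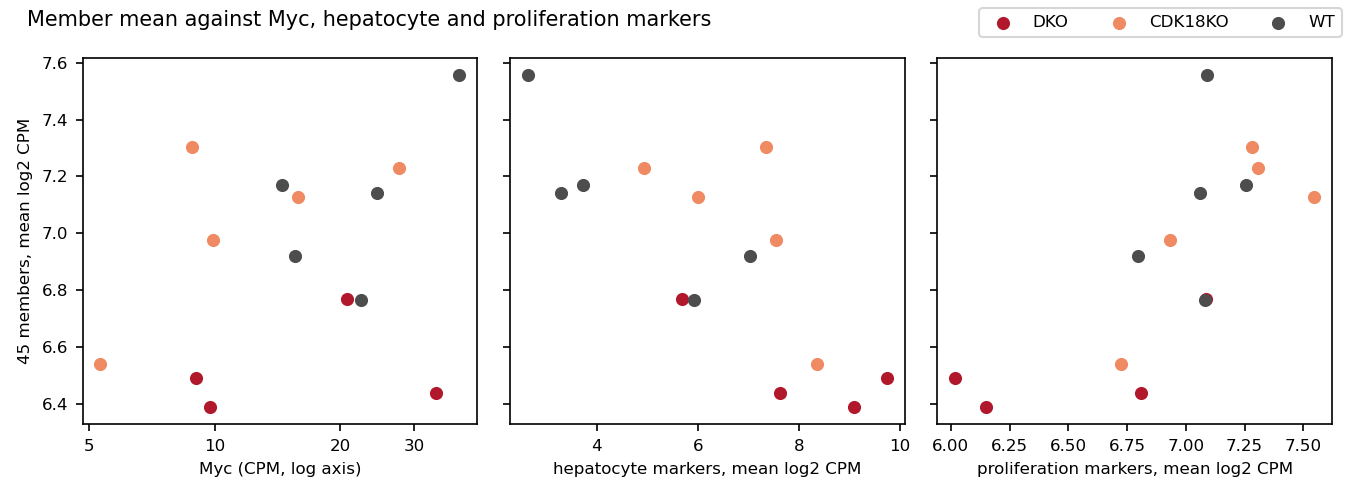
Each point is a tumour library, coloured by genotype. The vertical axis is the mean log2 CPM of the 45 members, and the horizontal axes are Myc CPM on a log axis and the mean log2 CPM of hepatocyte and of proliferation markers. DKO 4 sits at 33.9 CPM of Myc with a low member mean, and the member mean is lower where the hepatocyte mean is higher.

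The members varied among themselves in how far they moved together. Over 990 pairs of members, the median r across 14 libraries was 0.51, from -0.46 to 0.96, and 904 pairs were above 0. Within genotypes the median was 0.38. Against the mean of the other members, r was above 0.8 in 16 members, between 0.5 and 0.8 in 19 and at or below 0.5 in 10. Nop58 had the highest value at 0.92, followed by Nolc1, Mybbp1a and Polr1e at 0.91. Nop10 was lowest at 0.09, followed by Nhp2 at 0.29, Bop1 at 0.30 and Utp15 at 0.33. All pairs share the library scaling and the cell composition of the tumour, so these values are descriptions.

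Members of the same complex did not always track each other over the 14 libraries, where r also takes in differences between genotypes. In UTP-A, Utp4 and Wdr75 had r = 0.95, Utp15 and Wdr75 0.89 and Utp4 and Utp15 0.82, whereas Heatr1, which joins the same complex, had 0.21 with Utp15, 0.25 with Wdr75, 0.36 with Utp4 and 0.57 with Wdr43. In PeBoW, Pes1 and Wdr12 had 0.71, but Bop1 had 0.08 with Pes1 and 0.24 with Wdr12. The box C/D core was closer, with 0.85 between Nop56 and Nop58, 0.66 between Fbl and Nop58 and 0.53 between Fbl and Nop56. In the box H/ACA core Gar1 and Nhp2 had 0.69, and Dkc1 and Nhp2 0.18. Among polymerase subunits Polr1a and Polr1e had 0.76 and Polr1b and Polr1c 0.75, and Polr1a and Polr1c 0.07. The highest r of any pair was 0.96, between Polr1a and Wdr43. Within genotypes, r was 0.95 for Utp4 and Wdr75, 0.78 for Nop56 and Nop58 and 0.73 for Polr1b and Polr1c. It was 0.49 for Pes1 and Wdr12, 0.27 for Fbl and Nop56, -0.14 for Dkc1 and Nhp2 and -0.25 for Pes1 and Bop1. Counts were as low as 20 in Bop1, 21 in Polr1b and 12 in Polr1e, and the part of counting error was not tested.

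Spread over libraries also differed. The highest library exceeded the lowest 8.80-fold in Tcof1, 6.29-fold in Nop56 and 5.96-fold in Noc3l, against 2.04-fold in Heatr1, 2.27-fold in Pes1 and 2.29-fold in Nop10. WT 1 had the highest summed level, at 18156 CPM, and DKO 1 the lowest, at 6740 CPM. Hepatocyte markers summed to 12661 CPM in DKO 1 and 171 CPM in WT 1.

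Other genes of the pathway were described from lists that hold no member. Of 114 other ribosome biogenesis factors tested, 105 stood lower in DKO than in WT, against 52.1% of all genes, with a median of -0.41. At an unadjusted p under 0.05, 21 stood lower, against 5.22% of all genes. DESeq2 called 5 lower, against 1.13%, and edgeR called 0 by adjusted p. In DKO against CDK18KO 105 stood lower, against 51.8% of all genes, and 15 at that threshold, against 1.86%, with a median of -0.39. In CDK18KO against WT 62 stood lower, against 50.6% of all genes, with a median of -0.02. The RNA exosome, which trims and degrades ribosomal RNA precursors, had a median of -0.55 over 13 genes between DKO and WT, of which 12 stood lower. Exosc9, a core subunit, averaged 54.2 ± 10.6 CPM in DKO and 102 ± 16.8 CPM in WT, a log2 fold change of -0.92 (SE 0.23, adjusted p = 0.146). Mtrex, the helicase that feeds the exosome, averaged 148 ± 22.8 CPM in DKO, 265 ± 47.2 CPM in CDK18KO and 259 ± 74.4 CPM in WT, with -0.81 (SE 0.25, adjusted p = 0.146) for DKO against WT and -0.84 (SE 0.25, adjusted p = 0.429) for DKO against CDK18KO.

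In the snoRNP assembly list, Znhit6, which helps assemble box C/D particles, averaged 30.8 ± 8.40 CPM in DKO and 53.6 ± 13.3 CPM in WT, with -0.80 (SE 0.28, adjusted p = 0.156). Among small subunit factors outside the members, Riok1, an atypical kinase of late maturation, averaged 60.8 ± 11.5 CPM in DKO and 96.5 ± 21.0 CPM in WT, with -0.67 (SE 0.24, adjusted p = 0.161). Among large subunit factors, Mdn1, the giant ATPase that remodels the precursor, averaged 133 ± 18.3 CPM in DKO and 268 ± 123 CPM in WT, with -1.01 (SE 0.37, adjusted p = 0.166). In the same direction, Ddx27, an RNA helicase, averaged 93.5 ± 22.8 CPM in DKO and 188 ± 86.5 CPM in CDK18KO, with -1.004 (SE 0.36, adjusted p = 0.634).

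The ribosomal proteins, the products that the members assemble, were described as a separate list. Of 77 tested, 69 stood lower in DKO than in WT, against 52.1% of all genes, with a median of -0.28. At an unadjusted p under 0.05, 3 stood lower, against 5.22% of all genes, and 1 higher, against 13.7%. The higher gene was Rps2, at 297 ± 86.4 CPM in DKO, 348 ± 65.7 CPM in CDK18KO and 191 ± 61.5 CPM in WT, with 0.63 (SE 0.28, adjusted p = 0.235) for DKO against WT and 0.86 (SE 0.26, adjusted p = 0.163) for CDK18KO against WT. The slopes of the ribosomal proteins on Myc were above 0 in 77 of 77, against 53.3% of all genes, with a median of 0.29. At an unadjusted p under 0.05, 31 had a slope above 0, against 6.04% of all genes. DESeq2 called 6, against 2.13%, and edgeR called 0 by adjusted p, against 0%. Rps4x had 0.51 (SE 0.14, adjusted p = 0.126) and Rps13 had 0.45 (SE 0.12, adjusted p = 0.128). Over the 114 other biogenesis factors the median slope was 0.09, with 81 above 0. Differences between these lists were not tested, and the slopes of the ribosomal proteins with the hepatocyte covariate were not worked out. Many ribosomal protein genes have processed pseudogenes, so reads shared with them leave single levels uncertain.

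RNA polymerase III, which makes transfer RNA and the smallest ribosomal RNA, had a median of -0.39 over 21 genes between DKO and WT. Of these, 18 stood lower, against 52.1% of all genes, and 0 at an unadjusted p under 0.05, against 5.22%. Of 30 known Myc targets outside ribosome biogenesis, 25 stood lower in DKO than in WT, with a median of -0.30. In DKO against CDK18KO 29 stood lower, against 51.8% of all genes, with a median of -0.39. Cdc25a, a phosphatase of the cell cycle, averaged 79.0 ± 18.6 CPM in DKO, 144 ± 31.3 CPM in CDK18KO and 150.3 ± 58.7 CPM in WT, with -0.93 (SE 0.30, adjusted p = 0.147) for DKO against WT.

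**Figure D5:**
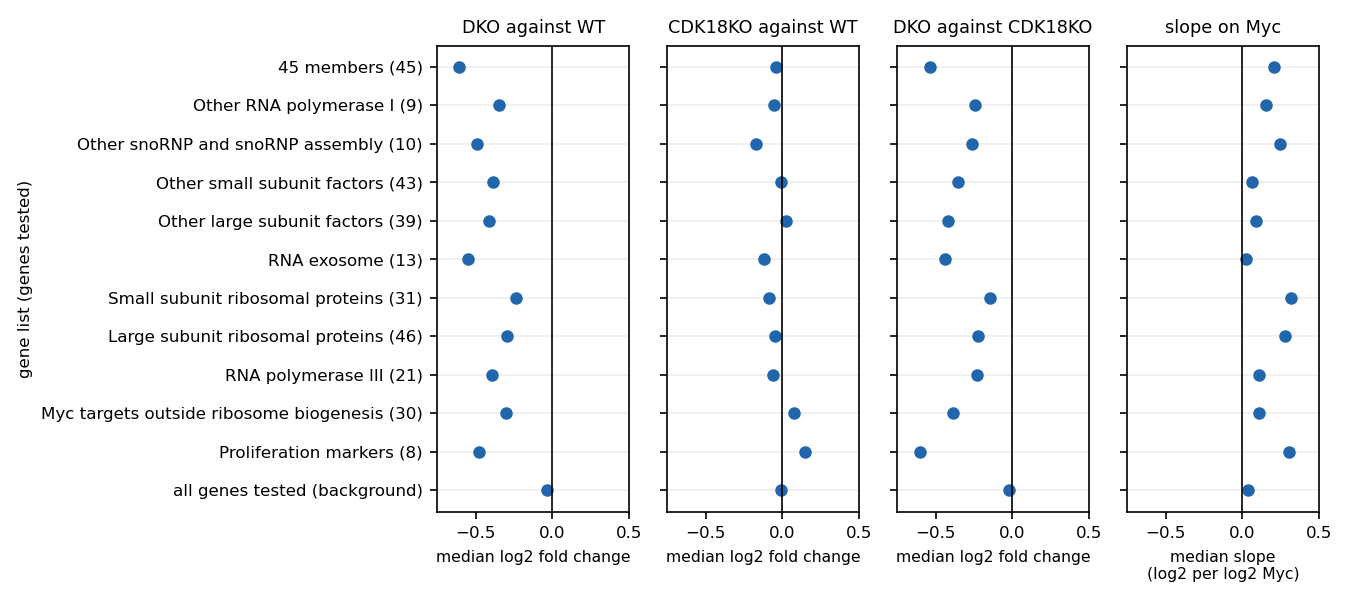
Each point is the median over a gene list, with the number of genes tested in brackets, for each comparison and for the slope on Myc. For DKO against WT the 45 members stand at -0.61, other lists of the pathway between -0.24 and -0.55, and all genes at -0.04.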

How the data were processed

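RNA of 14 mouse liver tumours was sequenced from the 3′ end with a stranded, poly(A)-primed kit and molecular identifiers, per the labels' protocols. The deposited table holds raw counts per gene symbol. The submitters' processing notes list HTSeq 1.99.2, STAR 2.7.11a, UMI-tools 1.1.2, FastQC and DESeq2 1.32.0 as tools, with GRCh38 and mm10 as builds. The sources used here do not give the annotation, or say if identifiers were collapsed, so intervals cover counting error only.

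From the counts, edgeR 4.0.16 (R 4.3.3, limma 3.58.1) was run with its quasi-likelihood F test, TMM factors, filterByExpr by genotype and a single fit of the 14 libraries. P-values are two-sided and adjusted by Benjamini-Hochberg over 13997 genes, which held 99.0% of counts, and called means an adjusted p under 0.05. Each SE is the log2 fold change over the root of F. The slope on Myc added log2 Myc CPM (prior count 2) to the genotype terms and left Myc out of the genes tested. Marker means and correlations use log2 CPM with the same prior count. Groups come from the genotype labels, and the comparisons of DKO and of CDK18KO with WT share the WT libraries. Replicate numbers were checked for pairing. The 13 pairs with the same number had deviations correlated from -0.23 to 0.65, with 6 pairs above 0.1. These values cannot tell whether the numbers mark pairs. The main fit left the numbers out, and a replicate block was run as an alternative.

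The naming rule takes the 6 members with the smallest p in each comparison and for the slope, the 3 with the highest and the 2 with the lowest mean CPM, and up to 3 genes of each other list. Polr1b, Polr1c, Fbl, Rrp9, Gar1, Nhp2, Rrp1b, Rrs1, Tsr1, Utp15, Utp20, Nop16, Pes1, Mybbp1a and Ddx21 were named after their values were seen. The members and lists were chosen with earlier results of these data known. Alternatives were DESeq2 1.42.0, RLE factors, no filter and a stricter filter (5 CPM in 4 libraries), only the groups compared, a replicate block, hepatocyte, Y-linked and Myc covariates, no genotype terms for the slope, and each library left out. Leaving out 3 libraries of high Y-linked counts was added after the data were seen. The fit was also run on simulated counts, with planted changes and slopes larger than the members' medians. That run does not cover effects of the members' size.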

Additional observations from a re-analysis of the deposited data

Results flagged for a closer look

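Dixon's criterion was applied to 69 groups of values, of 21 named genes and of the members' summed level and share of counts. In 4 of them a library was far from the others, which chance gives in about 1 in 20 groups. Nob1 was 39.5 CPM in DKO 3, against 17.4 CPM in the next DKO library. Nop58 was 873 CPM in WT 1, against 576 CPM in the next WT library. Bop1 was 52.5 CPM in CDK18KO 4, against 31.4 CPM in the next CDK18KO library. Cdk16 was 65.8 CPM in CDK18KO 1, against 37.0 CPM in the next CDK18KO library.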

How the results depend on the processing

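No member was called by edgeR under any alternative run. DESeq2 called 7 members between DKO and WT and 1033 genes, with 856 genes between CDK18KO and WT, 84 between DKO and CDK18KO and 1012 for the slope on Myc. With no filter on low counts, 252 genes were called between DKO and WT, 173 between CDK18KO and WT, 42 between DKO and CDK18KO and 146 for the slope, members at an unadjusted p under 0.05 numbered 12 lower between DKO and WT and 2 with a slope above 0, and Ncl turned to 0.037 between CDK18KO and WT. With only the 2 groups compared, 0 genes were called between DKO and WT and 0 between CDK18KO and WT.

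With the replicate block, 438 genes were called between DKO and WT and 297 between CDK18KO and WT. Members lower at an unadjusted p under 0.05 then numbered 1 between CDK18KO and WT, against 9.30% of all genes. Between DKO and CDK18KO they numbered 3, against 1.18%. Between DKO and WT, 7.24% of all genes stood lower at that threshold with the block. Apart from fits with a single library left out, the alternatives, with the block among them, had 34 to 44 members lower there. Of those, 0 to 24 were at that threshold. The block's median slope over members was 0.10, with 15 below 0 and 2 above 0 at that threshold. Same-numbered libraries had a median r of 0.04, from -0.23 to 0.65, and 6 of 13 pairs were above 0.1. These values cannot tell whether some of the numbers mark pairs.

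With the hepatocyte covariate, 2 genes were called between DKO and WT and 3 between CDK18KO and WT. Members lower at an unadjusted p under 0.05 were 0 between DKO and WT, against 0.593% of all genes, with a median of -0.23. Between DKO and CDK18KO they were 3, against 3.41%. Between CDK18KO and WT, 10 members stood lower, and Ncl (0.31), Noc2l (0.055), Nop56 (0.18), Npm1 (0.21) and Polr1e (0.16) turned positive, as did Npm1 between DKO and WT (0.16). The median slope was -0.025, with 25 below 0 (1 at that threshold, against 0.636% of all genes) and 0 above 0 at that threshold. Dkc1 had a slope of -0.13 and Nop56 of -0.045.

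With the Myc covariate, 0 genes were called between CDK18KO and WT and 1 between DKO and CDK18KO, 18 members stood lower between CDK18KO and WT, where Ncl (0.17), Npm1 (0.27) and Polr1e (0.13) turned positive, and 13 reached an unadjusted p under 0.05 between DKO and WT. With the Y-linked covariate, 0 genes were called in each comparison with WT. Between DKO and WT 12 members stood lower at that threshold, against 3.34% of all genes. Ncl (0.022) and Npm1 (0.10) turned positive between CDK18KO and WT. Without the 3 libraries of high Y-linked counts, 0 genes were called in each comparison with WT. Without genotype terms the slope called 205 genes.

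With each library left out, the member median ran from -0.69 to -0.50 between DKO and WT, from -0.15 to 0.05 between CDK18KO and WT, from -0.67 to -0.48 between DKO and CDK18KO and from 0.12 to 0.27 for the slope. Members lower ran from 42 to 44, 17 to 33 and 43 to 45 in the same comparisons, and slopes below 0 from 6 to 13. Those lower at an unadjusted p under 0.05 ran from 12 (without DKO 4) to 24, 0 to 1 and 3 (without CDK18KO 3) to 21 (without CDK18KO 2), 0 to 1 stood higher between CDK18KO and WT, and slopes above 0 at that threshold ran from 2 to 7. Genes called ran from 0 to 1, 0 to 74 (without CDK18KO 1), 0 to 2 and, for the slope, 0 to 417 (without DKO 4). Between CDK18KO and WT, Ncl ran from -0.16 to 0.084, Npm1 from -0.23 to 0.032, Polr1e from -0.17 to 0.069 and Bop1 from -0.0395 to 0.39, and the slope of Dkc1 from -0.037 to 0.13. The cause of these shifts was not tested. Among the alternatives, shares of all genes lower at that threshold were worked out only for DESeq2, RLE factors, the replicate block and the hepatocyte and Y-linked covariates. Other counts of members at that threshold have no background. Depth limits Myc, at 10 counts in its lowest library, and Polr1e, at 12.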
